A study of Mus musculus with 18 samples.

Results

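Glycolysis and the pentose phosphate pathway are described here through 34 genes, out of 55487 in the deposited count table. They were listed by the step they serve and were found in the table by their Ensembl identifiers. Of the 34, 4 encode glucose or lactate transporters (Slc2a1, Slc2a3, Slc16a1, Slc16a3) and 9 the steps from glucose to the triose phosphates (Hk1, Hk2, Hk3, Gpi1, Pfkl, Pfkm, Pfkp, Aldoa, Aldoc). A further 10 encode the steps from the triose phosphates to lactate (Tpi1, Gapdh, Pgk1, Pgam1, Eno1, Eno2, Eno3, Pkm, Ldha, Ldhb), 4 encode enzymes at control points (Pfkfb3, Pfkfb4, Pdk1, Bpgm) and 7 the pentose phosphate pathway (G6pdx, Pgls, Pgd, Rpia, Rpe, Tkt, Taldo1). Enough reads for a test were found for 32 of them, while Hk3 and Eno2 stayed under the filter on low counts.

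The cells were CD8+ T cells of wild-type C57BL/6J mice, taken from spleen and lymph nodes and sorted by surface 41BB (CD137), a costimulatory receptor encoded by Tnfrsf9. The 41BB+ cells are called Tpam by the submitters and the 41BB- cells conventional. RNA was taken right after the sort (0 h, no activation) or after 24 h or 72 h in culture with Dynabeads that carry antibodies against CD3 and CD28 and so activate T cells through their receptor. The design has 3 libraries in each of the 6 groups, 18 in all, described as biological triplicates. The sources used here do not give whether 1 mouse or a pool of mice made up a library.

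Glycolysis splits glucose into pyruvate and yields ATP, and lactate dehydrogenase then turns pyruvate into lactate so that NAD+ is renewed. The pentose phosphate pathway branches off after the hexokinase step. Its oxidative arm makes NADPH and its other arm makes ribose phosphate for nucleotides and returns sugars to glycolysis. Resting T cells take up little glucose, and T cells activated through their receptor are known to raise glucose uptake, glycolytic enzymes and lactate export, under transcription factors that include MYC and HIF-1. MYC binds the E-box CACGTG, and ACGTG is a form of the core of the hypoxia response elements bound by HIF-1.

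The promoters of 4 members whose windows hold these letters are printed to show where they stand, and they were picked for holding them. They are Slc16a1 (lactate export), Hk2 (glucose phosphorylation), Pgk1 (an ATP-yielding step of the lower pathway) and Ldha (lactate formation). Each sequence is the 250 bases before a RefSeq transcription start on GRCm38.p6, read 5′ to 3′ on the gene's strand. Capitals mark each match to ACGTG on either strand (CACGT when it lies on the opposite strand), and CACGTG is the E-box, which holds ACGTG on both strands.
Slc16a1 promoter, chr3:104638414-104638663, + strand: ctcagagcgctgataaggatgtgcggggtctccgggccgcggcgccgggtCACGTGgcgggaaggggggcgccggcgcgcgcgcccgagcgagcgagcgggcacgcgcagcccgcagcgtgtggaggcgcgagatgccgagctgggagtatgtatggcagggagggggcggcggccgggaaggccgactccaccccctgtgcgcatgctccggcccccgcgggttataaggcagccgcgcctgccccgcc
Hk2 promoter, chr6:82774455-82774704, - strand: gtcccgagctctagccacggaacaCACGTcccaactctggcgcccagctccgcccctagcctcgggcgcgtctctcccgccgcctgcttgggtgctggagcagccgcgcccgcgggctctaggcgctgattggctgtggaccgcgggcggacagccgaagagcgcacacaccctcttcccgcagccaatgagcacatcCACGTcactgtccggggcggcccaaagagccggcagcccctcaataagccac
Pgk1 promoter, chrX:106186850-106187099, + strand: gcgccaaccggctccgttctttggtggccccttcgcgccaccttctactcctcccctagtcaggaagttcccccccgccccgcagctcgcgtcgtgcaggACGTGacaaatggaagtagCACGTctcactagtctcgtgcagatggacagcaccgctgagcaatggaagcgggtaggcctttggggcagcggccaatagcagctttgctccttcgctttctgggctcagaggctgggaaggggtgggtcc
Ldha promoter, chr7:46845554-46845803, + strand: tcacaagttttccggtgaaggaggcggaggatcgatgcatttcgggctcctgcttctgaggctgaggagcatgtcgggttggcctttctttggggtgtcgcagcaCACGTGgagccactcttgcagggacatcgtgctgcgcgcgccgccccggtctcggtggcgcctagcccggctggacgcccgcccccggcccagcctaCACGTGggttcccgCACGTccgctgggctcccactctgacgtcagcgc
The Slc16a1 window holds 1 CACGTG, the Ldha window 2, and the Hk2 and Pgk1 windows hold ACGTG without it. Windows of other members with large differences hold neither, among them that of Tpi1, both windows of Hk1 and a second window of Ldha. RefSeq windows were matched for 33 of the 34 genes, 47 windows in all. ACGTG was in 15 of these 47 windows (31.9%), of 12 genes, and in 16.6% of all 32851 windows of the same length. CACGTG was in 4 member windows (8.51%) and in 6.02% of all windows. These matches describe the letters in the windows and say nothing of binding in these cells. Other forms of the core were not searched, so a window without ACGTG may still hold such a form.

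Libraries held 3085241 to 4239795 counted reads (median 3524157.5), and levels are given as CPM, read counts scaled to the total counted reads of their library. Tnfrsf9 stood at 373 to 421 CPM in the 41BB+ and 4.96 to 8.45 CPM in the 41BB- libraries at 0 h. At 72 h it stood at 11.6 to 33.8 CPM and 44.0 to 61.3 CPM. All 6 genes of a CD8 T cell list were present. The list was lower in 41BB+ cells at 0 h, at a summed 1995.6 to 2198.7 against 2837.4 to 3214.3 CPM, with 5 of 6 genes past the test, and 2 of them, Cd8b1 and Cd3d, were higher at 72 h (log2 fold changes 0.41 and 0.44). Of a CD4 T cell list, Cd4 had at most 10 reads in any library. Foxp3 of that list was higher in 41BB+ cells, at 1.47 to 5.15 against 0 to 1.55 CPM at 0 h and 9.7 to 25.3 against 3.49 to 7.9 CPM at 72 h, and Cd40lg was lower at 72 h (0.269 to 2.19 against 3.49 to 5.19 CPM). Of genes known from B cells, Ighm and Cd79b were lower in 41BB+ cells at 0 h (log2 fold changes -1.37 and -1.61). Of a stromal and endothelial list 1 gene was tested, Pecam1, which was lower in 41BB+ cells at 0 h and higher at 72 h (-0.99 and 1.11). Erythroid and platelet, NK and dendritic cell lists summed to at most 6.58, 5.89 and 29.5 CPM in any library. Only 2 of their genes, both of the dendritic list, had enough reads for a test, and 0 were called. A list of 8 myeloid genes summed to 93.0 CPM in the 41BB+ library 2 at 24 h and to 1.91 to 19.5 CPM in the other 17 libraries. Mitochondrial transcripts made up 10.5% to 11.4% of the counts of 41BB+ and 8.84% to 9.56% of those of 41BB- libraries at 72 h. The part of these differences in the results below was not tested.

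Before activation, these 34 genes took a larger share of the reads in 41BB+ than in 41BB- cells, and at 72 h the order was the opposite. The 34 genes together took 0.44%, 0.427% and 0.408% of the counts in the 41BB+ libraries at 0 h and 0.2%, 0.208% and 0.204% in the 41BB- libraries. At 24 h they took 0.646%, 0.653% and 0.686% in 41BB+ and 0.599%, 0.584% and 0.628% in 41BB- libraries. At 72 h the shares were 0.362%, 0.328% and 0.311% in 41BB+ and 0.664%, 0.842% and 1.0% in 41BB- libraries. The populations did not overlap at any of the 3 times, and the widest spread within a group was that of the 41BB- cells at 72 h. In that group, library 3 had the highest level of the 3 for 24 of the 32 tested members and library 1 the lowest for 24. The same counts over all tested genes are not given here, so this is not shown to be particular to the members. In bulk RNA, fewer cells that express a gene and less of its RNA per cell cannot be told apart.

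Genes were tested with edgeR's quasi-likelihood test and Benjamini-Hochberg adjustment over the 13150 genes tested, with a threshold of 0.05, and every adjusted p below is from it. At 0 h, 18 of the 32 tested members were higher in 41BB+ than in 41BB- cells and 3 were lower, while 39.5% of all tested genes were called, 22.2% higher and 17.3% lower. The members' median log2 fold change was 0.81, against 0.01 over all tested genes, and 15 of the 18 were higher by 2-fold or more. The higher members lay in the lower part of glycolysis (8 of 9 tested) and in the pentose phosphate pathway (6 of 7). In upper glycolysis 2 of 8 were higher and 1 lower, among the transporters 1 of 4 was higher and 1 lower, and at the control points 1 of 4 was higher and 1 lower.

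**Figure D1:**
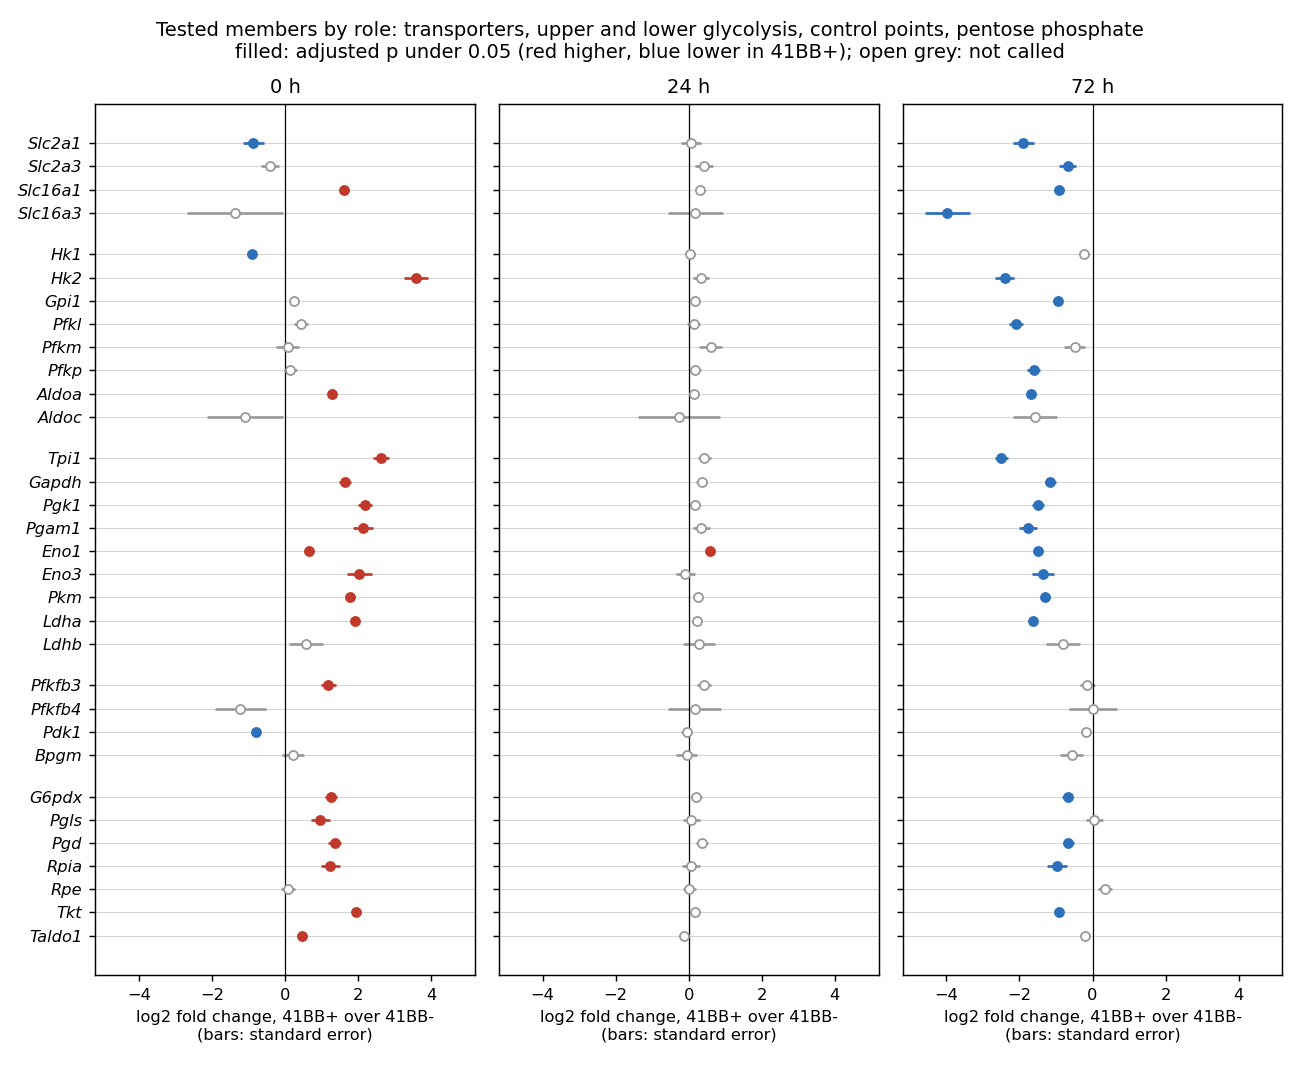
Log2 fold change of each tested member between 41BB+ and 41BB- cells at 0 h, 24 h and 72 h, with its standard error as a bar. Filled points passed the test (red higher, blue lower in 41BB+ cells) and open grey points did not: 18 higher and 3 lower at 0 h, 1 higher at 24 h, and 21 lower at 72 h.

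Hexokinases phosphorylate glucose and so trap it in the cell, and the pair expressed here differed in opposite directions at 0 h. Hk2 (chr6:82725025-82774454 on GRCm38), the inducible isozyme, was at 55.7, 60.6 and 58.7 CPM in the 41BB+ libraries and at 4.96, 3.57 and 5.73 CPM in the 41BB- libraries. The groups did not overlap, and the difference was the largest of any member at 0 h (log2 fold change 3.59, SE 0.33, adjusted p = 2.86e-08), with 46 reads in the 41BB- libraries together. Hk1 (chr10:62268855-62379908), the constitutive isozyme, was lower, at 81.6, 66.1 and 70.7 CPM against 139, 134 and 133 CPM (log2 fold change -0.91, SE 0.13, adjusted p = 2.83e-06). Aldoa (chr7:126795234-126800751), the aldolase that splits fructose bisphosphate, was the other higher member of the upper pathway, at 303, 341 and 284 CPM against 118, 120.0 and 138 CPM (log2 fold change 1.29, SE 0.14, adjusted p = 4.13e-08). The groups were apart for Hk1 and Aldoa too. The isomerase gene Gpi1 (log2 fold change 0.25, adjusted p = 0.113) and the phosphofructokinase genes Pfkl (0.45, adjusted p = 0.0591), Pfkp (0.15, adjusted p = 0.534) and Pfkm (0.07, adjusted p = 0.896) did not pass the test at 0 h. Pfkl did pass with the experiment number as a block within each time (log2 fold change 0.45, adjusted p = 0.0181) and with no filter on low counts (0.45, adjusted p = 0.0396). Aldoc, the brain aldolase, had 4 reads in the 41BB+ and 8 in the 41BB- libraries together, and Hk3 had 9 and 15.

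In lower glycolysis the difference at 0 h ran through nearly every step. Tpi1 (chr6:124810586-124814296), which interconverts the triose phosphates, was at 92.8, 73.8 and 66 CPM in 41BB+ and 12.1, 13.9 and 11.2 CPM in 41BB- libraries (log2 fold change 2.63, SE 0.22, adjusted p = 6.44e-10). Pgk1 (chrX:106187100-106203699), phosphoglycerate kinase, was at 297, 274 and 269 CPM against 52.4, 55.1 and 74.5 CPM (log2 fold change 2.19, SE 0.18, adjusted p = 1.4e-09). Pgam1 (chr19:41911923-41918660), phosphoglycerate mutase, was at 124, 116 and 117 CPM against 18.3, 22 and 39.2 CPM (log2 fold change 2.14, SE 0.27, adjusted p = 7.86e-06). In each of these 3 genes the lowest 41BB+ library was above the highest 41BB- library. Eno3 (chr11:70657202-70662513), the muscle enolase, was low in both populations and higher in 41BB+ cells, at 23, 17.7 and 13.9 CPM against 3.72, 5.51 and 3.92 CPM (log2 fold change 2.03, SE 0.34, adjusted p = 1.81e-05). Ldha (chr7:46841475-46855627), the lactate dehydrogenase subunit of glycolytic tissues, was at 708, 665 and 622 CPM against 168, 179 and 179 CPM (log2 fold change 1.91, SE 0.13, adjusted p = 2.07e-12). Pkm, pyruvate kinase, had means of 643 ± 21.4 and 185 ± 10.4 CPM (SD, n = 3, 3.44-fold, adjusted p = 2.15e-12), and Gapdh, which makes NADH, had 103 ± 14.7 and 32.7 ± 3.78 CPM (3.12-fold, adjusted p = 6.6e-09). The smallest called difference of the lower pathway was that of the enolase Eno1, at 186 ± 3.98 and 118 ± 21 CPM (1.57-fold, adjusted p = 0.000279). Ldhb, the lactate dehydrogenase subunit of oxidative tissues, stood at 8.25 CPM or less in these 6 libraries and was not called (log2 fold change 0.58, SE 0.47, adjusted p = 0.365). Eno2, the neuronal enolase, had 16 reads in the 41BB+ and 3 in the 41BB- libraries together.

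Of the pentose phosphate genes, Tkt (chr14:30548359-30574720), the transketolase that links the pathway back to glycolysis, differed most at 0 h. It was at 394, 408 and 400.0 CPM in 41BB+ and 99.5, 110.0 and 100.0 CPM in 41BB- libraries (log2 fold change 1.95, SE 0.1, adjusted p = 4.31e-14). G6pdx (chrX:74409483-74429194), glucose 6-phosphate dehydrogenase and the entry to the oxidative arm, was at 48, 42.3 and 39.2 CPM against 13.9, 19.1 and 20.5 CPM (log2 fold change 1.26, SE 0.17, adjusted p = 5.93e-07). Both oxidative dehydrogenases were higher in 41BB+ cells, with Pgd (chr4:149149991-149166771) at 77.2, 69.8 and 58.9 CPM against 23.2, 27.6 and 28.4 CPM (log2 fold change 1.36, SE 0.18, adjusted p = 3.76e-07). Rpia (chr6:70765720-70792232), ribose phosphate isomerase, was at 51.5, 57.5 and 42.6 CPM against 15.8, 25.9 and 22 CPM (log2 fold change 1.24, SE 0.26, adjusted p = 0.000414). The lactonase gene Pgls had means of 31.6 ± 6.56 and 16.1 ± 1.54 CPM (1.95-fold, adjusted p = 0.00233) and the transaldolase gene Taldo1 95.3 ± 10.5 and 68.5 ± 6.44 CPM (1.38-fold, adjusted p = 0.00774). The 3 libraries of each population stayed apart in all 6 of these genes, which is not separate from their being called by the test. Taldo1 lost its call without the 41BB+ library 2 (log2 fold change 0.35, adjusted p = 0.0775) or the 41BB- library 2 (0.38, adjusted p = 0.0585). Rpe, the epimerase of the same branch, did not differ beyond the spread of its libraries at 29.1 ± 2.89 and 27.2 ± 2.84 CPM (adjusted p = 0.768).

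Transport and control points showed no common direction at 0 h. Slc16a1 (chr3:104638668-104658462), the lactate transporter MCT1, was at 142, 123 and 127 CPM in 41BB+ and 43.1, 38.2 and 44.3 CPM in 41BB- libraries (log2 fold change 1.62, SE 0.13, adjusted p = 1.08e-10), with no overlap. Slc2a1 (chr4:119108711-119137983), the glucose transporter GLUT1, was lower in 41BB+ cells, at 47.4, 33.5 and 38.4 CPM against 81.8, 75.2 and 58.5 CPM (log2 fold change -0.87, SE 0.29, adjusted p = 0.0258). Those groups did not overlap either, but the adjusted p lay between 0.0648 and 0.0927 without the 41BB+ library 2 or 3 or without the 41BB- library 1 or 2. The other glucose transporter, Slc2a3 (GLUT3), had means of 43.3 ± 6.35 and 56.9 ± 4.64 CPM and was not called (log2 fold change -0.41, SE 0.24, adjusted p = 0.193), and Slc16a3, the lactate exporter MCT4, had 5 and 12 reads in all. Pfkfb3 (chr2:11471433-11554077), which makes the activator of phosphofructokinase, was at 135, 133 and 146 CPM against 63.5, 62.9 and 53.7 CPM (log2 fold change 1.19, SE 0.2, adjusted p = 4.67e-05). Pdk1 (chr2:71873224-71903858), the kinase that inhibits pyruvate dehydrogenase, was lower, at 131, 109 and 112 CPM against 187, 222 and 196 CPM (log2 fold change -0.80, SE 0.13, adjusted p = 1.5e-05). For Pfkfb3 every 41BB+ library was above every 41BB- library, and for Pdk1 every 41BB+ library was below. Bpgm, which diverts a lower-pathway intermediate to bisphosphoglycerate, had 16.3 ± 4.4 and 13.9 ± 0.595 CPM (adjusted p = 0.631), and Pfkfb4, a relative of Pfkfb3, had 1.96 ± 0.428 and 4.57 ± 0.266 CPM (adjusted p = 0.17).

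At 24 h the populations were close. By edgeR 1 of the 32 members was higher in 41BB+ cells and 0 were lower, against 2.75% of all tested genes called, 1.67% higher and 1.07% lower, and DESeq2 and limma's voom gave the same counts. At an unadjusted p under 0.05, 7 were higher and 0 lower. The higher member was Eno1 (chr4:150236721-150248879), at 512, 580.0 and 553 CPM in 41BB+ and 396, 394 and 391 CPM in 41BB- libraries (log2 fold change 0.59, SE 0.13, adjusted p = 0.00777), with no overlap. The call held without each library in turn, with adjusted p from 0.0133 to 0.0482. The members' log2 fold changes at 24 h ran from -0.27 to 0.6 with a median of 0.18, against 0.02 over all genes. Hk2, which differed most at 0 h, was at 209, 178 and 179 CPM in 41BB+ and 145, 170.0 and 170.0 CPM in 41BB- libraries at 24 h (log2 fold change 0.34, SE 0.22, adjusted p = 0.617). Ldha stood at 1216.6 ± 76.5 and 1126.8 ± 138 CPM (adjusted p = 0.472) and Tkt at 372 ± 3.95 and 355 ± 14.1 CPM (adjusted p = 0.486). A p above the threshold does not show that the levels were the same. In simulated counts made from these libraries, 53.7% of genes changed 2-fold at 24 h and 17.9% of those changed 1.5-fold were called. The changed genes were drawn from all genes above a low mean count, not from the members, so these are not rates for the members.

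At 72 h, edgeR called 21 of the 32 members lower in 41BB+ cells and 0 higher, while 18.9% of all tested genes were called, 12.2% lower and 6.71% higher. At an unadjusted p under 0.05, 22 were lower and 0 higher, and DESeq2 called 22 and voom 20 lower with 0 higher. The members' median log2 fold change was -0.96, against -0.04 over all genes, and 14 of the 21 were lower by 2-fold or more. They were all 4 transporters, 5 of 8 tested genes of upper and 8 of 9 of lower glycolysis, and 4 of 7 of the pentose phosphate pathway, but not the 4 control points. Over all genes, 883 were higher and 1602 lower. That split was 1118 to 1300 with mitochondrial genes, ribosomal RNA and the RNA gene Gm23935 left out, and 891 to 900 with only the 72 h groups in the fit, and each of these fits called 20 members lower and 0 higher.

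Of the lower-pathway genes, Tpi1 differed most at 72 h, at 67.5, 46.3 and 40.1 CPM in 41BB+ and 211, 298 and 382 CPM in 41BB- libraries (log2 fold change -2.50, SE 0.18, adjusted p = 2.55e-09). Pgk1 was at 204, 228 and 268 CPM against 476, 646 and 888 CPM (log2 fold change -1.49, SE 0.17, adjusted p = 1.61e-06). Pgam1 was at 90.5, 73.3 and 40.7 CPM against 181, 253 and 279 CPM (log2 fold change -1.77, SE 0.25, adjusted p = 0.000102). In all 3 the highest 41BB+ library lay below the lowest 41BB- library. Ldha was at 449, 439 and 333 CPM against 1024.4, 1456.5 and 1389 CPM (log2 fold change -1.63, SE 0.12, adjusted p = 9.21e-10), again with no overlap. Eno1 (2.82-fold), Pkm (2.45-fold) and Gapdh (2.23-fold) were lower in 41BB+ cells with adjusted p from 7.48e-09 to 4.82e-06, and so was Eno3, at 8.33 ± 4.42 and 21.8 ± 5.4 CPM (log2 fold change -1.35, SE 0.3, adjusted p = 0.00185). Ldhb, at 3.56 ± 2.13 and 6.5 ± 2.84 CPM, was not called (log2 fold change -0.81, SE 0.47, adjusted p = 0.253).

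Upper glycolysis at 72 h included 3 genes that had not been called at 0 h. Pfkl (chr10:77986947-78010083), the liver-type phosphofructokinase that commits sugar to glycolysis, was at 32.4, 38.4 and 30.4 CPM in 41BB+ and 106, 152 and 182 CPM in 41BB- libraries (log2 fold change -2.09, SE 0.19, adjusted p = 1.94e-08). Pfkp (chr13:6579768-6648777), the platelet type, was at 104, 94 and 110.0 CPM against 228, 282 and 449 CPM (log2 fold change -1.61, SE 0.17, adjusted p = 6.17e-07). Gpi1, which interconverts the hexose phosphates, was at 290.0, 281 and 294 CPM against 454, 548 and 710.0 CPM (log2 fold change -0.95, SE 0.12, adjusted p = 2.3e-06). Each gene separated the groups without overlap. Hk2, 12-fold higher in 41BB+ cells at 0 h, was 5.29-fold lower at 72 h, at 14.3, 24.1 and 11.6 CPM against 61.1, 71.5 and 136 CPM (log2 fold change -2.40, SE 0.26, adjusted p = 2.96e-06). Aldoa was at 276, 247 and 297 CPM against 689, 839 and 1168.9 CPM (log2 fold change -1.68, SE 0.14, adjusted p = 6.58e-09). Hk1 was not called, at 149 ± 29.3 and 179 ± 22.3 CPM (log2 fold change -0.23, SE 0.13, adjusted p = 0.234), nor were Pfkm (15.7 ± 6.08 and 22.4 ± 6.87 CPM, adjusted p = 0.264) and Aldoc (4.93 ± 0.609 and 15 ± 9.27 CPM, adjusted p = 0.0728). Aldoc was called lower by DESeq2 (log2 fold change -1.55, adjusted p = 0.0458) and by edgeR with only the 72 h groups in the fit (-1.51, adjusted p = 0.0256).

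Transporters gave the largest difference of any member at 72 h. Slc16a3 (chr11:120948480-120960868), the MCT4 exporter of strongly glycolytic cells, was at 2.74, 2.33 and 7.81 CPM in 41BB+ and 26.6, 63.9 and 119 CPM in 41BB- libraries (log2 fold change -3.97, SE 0.62, adjusted p = 0.000261). Its 41BB- libraries spread widely and all lay above the 41BB+ ones, and the log2 fold change was -3.28 without the 41BB- library 3 and -4.68 without the 41BB+ library 3. Slc2a1 was at 25.2, 34.9 and 24.8 CPM against 52.9, 96.2 and 172 CPM (log2 fold change -1.89, SE 0.3, adjusted p = 0.000226). Its log2 fold change was -1.30 without the 41BB- library 3. Slc16a1 was at 38.1, 40.2 and 30.2 CPM against 59.8, 72.4 and 78.1 CPM (log2 fold change -0.92, SE 0.14, adjusted p = 1.8e-05). For both Slc2a1 and Slc16a1 every 41BB+ library was below every 41BB- library. Slc2a3 (chr6:122727809-122801640) overlapped between the groups, at 37.3, 48.3 and 51.4 CPM against 42.4, 68.9 and 114 CPM (log2 fold change -0.68, SE 0.23, adjusted p = 0.0431). Its call was lost without any 1 of 5 of the 6 libraries (adjusted p from 0.0804 to 0.641, the highest without the 41BB- library 3, all but the 41BB- library 1) and under 5 other settings.

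In the pentose phosphate pathway the differences at 72 h were smaller than 2-fold. Tkt was at 190.0, 176 and 163 CPM in 41BB+ and 302, 353 and 368 CPM in 41BB- libraries (log2 fold change -0.92, SE 0.1, adjusted p = 2.85e-07). G6pdx was at 34.6, 33.8 and 31.2 CPM against 59.5, 53.5 and 50.9 CPM (log2 fold change -0.68, SE 0.15, adjusted p = 0.00212). The groups stayed apart for both, and for Pgd. Pgd, with means of 68.1 ± 18.6 and 110.0 ± 12.5 CPM (log2 fold change -0.66, SE 0.16, adjusted p = 0.0039), lost its call without the 41BB+ library 3 (adjusted p = 0.0691). Rpia, at 12.1, 9.89 and 23.4 CPM against 26.3, 21.8 and 43.6 CPM (log2 fold change -0.98, SE 0.27, adjusted p = 0.0118), overlapped and lost its call without the 41BB+ library 1 (adjusted p = 0.0852), the 41BB+ library 2 (0.113) or the 41BB- library 3 (0.188). It also lost it with only the 72 h groups in the fit (adjusted p = 0.0851). Pgls (26.8 ± 8.55 and 26.4 ± 6.91 CPM), Taldo1 (89 ± 4.16 and 105 ± 16.3 CPM) and Rpe (26.4 ± 3.15 and 21.1 ± 3.19 CPM) were not called, with adjusted p from 0.224 to 0.918. At the control points Pfkfb3, Pfkfb4, Pdk1 and Bpgm had log2 fold changes from -0.57 to 0.01, with adjusted p from 0.23 to 0.991.

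**Figure D2:**
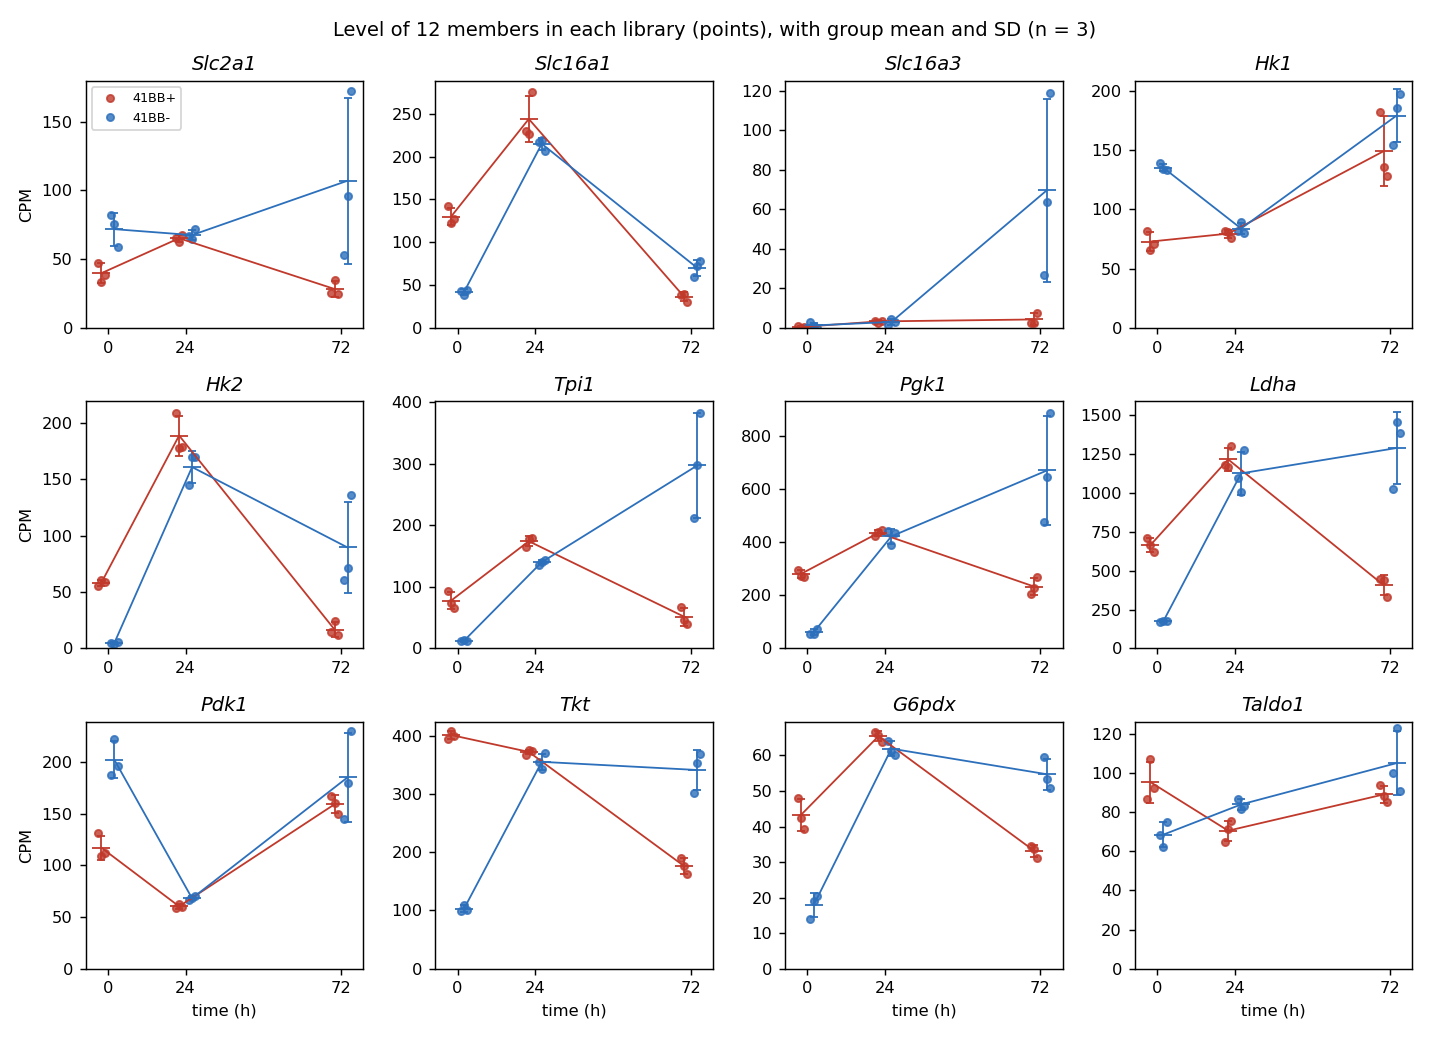
Level in CPM of 12 members in each of the 18 libraries against hours of activation (0, 24 and 72), one panel per gene. Points are libraries of 41BB+ and 41BB- cells, lines join the group means and bars are the SD of 3 libraries. Hk2, Tpi1, Pgk1, Ldha and Tkt start higher in 41BB+ cells, lie close at 24 h and end lower in 41BB+ cells, while Hk1 and Pdk1 start lower in 41BB+ cells.

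Set side by side, 15 of the 32 tested members exceeded the 41BB- level at 0 h and lay below it at 72 h by the test, as did 1237 of all 13150 tested genes (9.41%). They were Slc16a1, Hk2, Aldoa, Tpi1, Gapdh, Pgk1, Pgam1, Eno1, Eno3, Pkm, Ldha, G6pdx, Pgd, Rpia and Tkt. Pfkfb3, Pgls and Taldo1 were higher at 0 h and not called at 72 h. Slc2a3, Slc16a3, Gpi1, Pfkl and Pfkp were called at 72 h only. Hk1 and Pdk1 were lower at 0 h only, Slc2a1 was lower at both times, and Pfkm, Aldoc, Ldhb, Pfkfb4, Bpgm and Rpe were called at neither.

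The change within each population was then tested over each interval. The intervals share the 24 h libraries, and the first interval shares the 0 h libraries with the comparison of populations at 0 h. The second interval likewise shares the 72 h libraries with the comparison of populations at 72 h. From 0 to 24 h, 15 members rose and 3 fell in 41BB+ cells (18.1% and 16.5% of all genes), and 18 rose and 3 fell in 41BB- cells (29.0% and 27.6%, 56.6% together). The median log2 fold change of the members was 0.54 in 41BB+ and 1.04 in 41BB- cells, against -0.06 and -0.07 over all genes. In lower glycolysis 8 of 9 tested genes rose in each population, with a median of 1.07 in 41BB+ and 2.61 in 41BB- cells. Hk2 rose 3.35-fold in 41BB+ (adjusted p = 7.01e-06) and 31.8-fold in 41BB- cells (adjusted p = 4.62e-11), the latter from 46 reads. Tpi1 rose 2.33-fold and 10.7-fold (adjusted p = 6.39e-06 and 1.43e-12), and Slc16a1 1.94-fold and 4.85-fold (adjusted p = 4.45e-07 and 3.43e-14). In the pentose phosphate pathway Tkt rose 3.27-fold in 41BB- cells (adjusted p = 5.91e-14), and in 41BB+ cells it was at 401 ± 6.96 CPM at 0 h and 372 ± 3.95 CPM at 24 h (adjusted p = 0.683).

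A few members fell over the same 24 h. Pdk1 fell 1.87-fold in 41BB+ (adjusted p = 5.66e-06) and 3.12-fold in 41BB- cells (adjusted p = 3.33e-11), to 60.3 ± 2.3 and 68.1 ± 2.05 CPM. Hk1 fell 1.7-fold in 41BB- cells (adjusted p = 1.61e-05), while in 41BB+ cells its log2 fold change was 0.18 (adjusted p = 0.322). Slc2a3 fell in 41BB- cells (log2 fold change -0.67, SE 0.24, adjusted p = 0.0212), and lost that call without the 41BB- library 1 or 2 of 0 h or of 24 h (adjusted p from 0.0672 to 0.12). Slc2a1 was called in neither population, with log2 fold changes of 0.77 in 41BB+ (adjusted p = 0.0518) and -0.17 in 41BB- cells (adjusted p = 0.64). It was called higher in 41BB+ cells by DESeq2 (0.78, adjusted p = 0.0155), by voom (0.79, 0.019) and by edgeR under 5 other settings (0.75 to 0.83, adjusted p from 4.3e-05 to 0.0493). Slc16a3 was called higher there with the block (2.81, adjusted p = 0.0369), by DESeq2 (2.89, 0.0158) and by edgeR with no filter (2.84, 0.000612), from 5 reads at 0 h. Pgd, not called there in the main fit, was called higher by voom (0.39, adjusted p = 0.0275). So it was by edgeR with only the compared groups (0.36, 0.0397), with no filter (0.44, 0.0447) and without mitochondrial genes, ribosomal RNA and Gm23935 (0.41, 0.046). In 41BB+ cells the falls of Taldo1 (-0.38) and Pfkfb3 (-0.54) and the rises of Pfkl (0.53) and Rpe (0.54) were lost without at least 1 library. The libraries were 41BB+ 2 or 3 of 0 h or any of 24 h for Taldo1 (adjusted p from 0.0748 to 0.26), and any of 0 h or 2 or 3 of 24 h for Pfkfb3 (0.0886 to 0.226). They were 1 or 3 of 0 h for Pfkl (0.0652 and 0.0643), and 2 of 0 h or 3 of 24 h for Rpe (0.0546 and 0.124).

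From 24 to 72 h the populations diverged. In 41BB+ cells 4 members rose and 20 fell (26.2% and 26.3% of all genes), and in 41BB- cells 18 rose and 4 fell (22.6% and 18.2%). The members' median log2 fold change was -0.82 in 41BB+ and 0.76 in 41BB- cells, against 0.03 and 0.04 over all genes. All 9 tested genes of lower glycolysis fell in 41BB+ cells, with a median of -1.41, while 5 of them rose and 1 fell in 41BB- cells. In upper glycolysis 7 of 8 rose and 1 fell in 41BB- cells, and 2 rose and 4 fell in 41BB+ cells.

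Slc2a1, Pfkl, Pfkp, Aldoa, Tpi1, Pgk1, Eno1, Pkm and Ldha, 9 of the 32 members, fell in 41BB+ and rose in 41BB- cells over that interval, as did 89 of all 13150 tested genes (0.677%). Tpi1 fell 3.23-fold (adjusted p = 2.25e-08) and rose 2.36-fold (adjusted p = 2.55e-06). Pfkl fell 2.66-fold (adjusted p = 4.14e-07) and rose 1.76-fold (adjusted p = 0.000447). Ldha fell 2.85-fold in 41BB+ cells (adjusted p = 3.05e-11). Its rise of 1.27-fold in 41BB- cells (adjusted p = 0.0225) was lost without 1 of the 41BB- libraries 1 or 2 of 24 h or 2 or 3 of 72 h (adjusted p from 0.129 to 0.259). The rise of Slc2a1 in 41BB- cells (log2 fold change 0.82, SE 0.28, adjusted p = 0.0259) was 0.23 without the 41BB- library 3 of 72 h (adjusted p = 0.416), and was also lost without any 1 of the 24 h libraries (adjusted p from 0.0818 to 0.105). Slc16a3 rose in 41BB- cells (log2 fold change 4.61, SE 0.65, adjusted p = 2.12e-05), and by 3.93 without that library 3, while in 41BB+ cells its log2 fold change was 0.46 (adjusted p = 0.632). Without the same library the rise of Slc2a3 was 0.65 in place of 1.15 on the log2 scale, and those of Pfkp and Pgk1 were 0.57 and 0.5 in place of 0.96 and 0.82.

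Slc16a1, Hk2, Eno3 and Rpe fell in both populations from 24 to 72 h. Hk2 fell 10.8-fold in 41BB+ (adjusted p = 9.7e-10) and 1.62-fold in 41BB- cells (adjusted p = 0.0187). The second of these was lost without the 41BB- library 1 (adjusted p = 0.0603) or 2 (0.0625) of 72 h, and the log2 fold change was -1.2 without library 3. Slc16a1 fell 6.45-fold and 2.76-fold (adjusted p = 2.08e-15 and 3.25e-10). Hk1 and Pdk1 rose in both, Hk1 1.97-fold and 2.36-fold and Pdk1 2.76-fold and 3.01-fold, with adjusted p from 2.4e-10 to 4.26e-07. Aldoc was also called higher in both, from 4 and 5 reads a group at 24 h to 4.93 ± 0.609 and 15 ± 9.27 CPM at 72 h. Its fitted log2 fold change moved from 3.74 to 4.93 without the 41BB+ library 3 of 24 h, and from 5.04 to between 4.34 and 5.76 without 1 of the 41BB- libraries. The call of Ldhb in 41BB+ cells (-1.34) was lost without library 2 of 24 h or of 72 h (adjusted p = 0.0927 and 0.101), and that of Bpgm (-0.95) without library 1 of 24 h or 2 of 72 h (0.0512 and 0.0962). The call of Rpe in 41BB+ cells was lost without library 3 of 24 h or 1 of 72 h (0.129 and 0.0602). Taldo1, called higher in both (0.40 and 0.47), lost the first call without the 41BB+ library 1 of 24 h (0.0587) and the second without the 41BB- library 2 or 3 of 24 h or 2 of 72 h (0.0527 to 0.129).

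**Figure D3:**
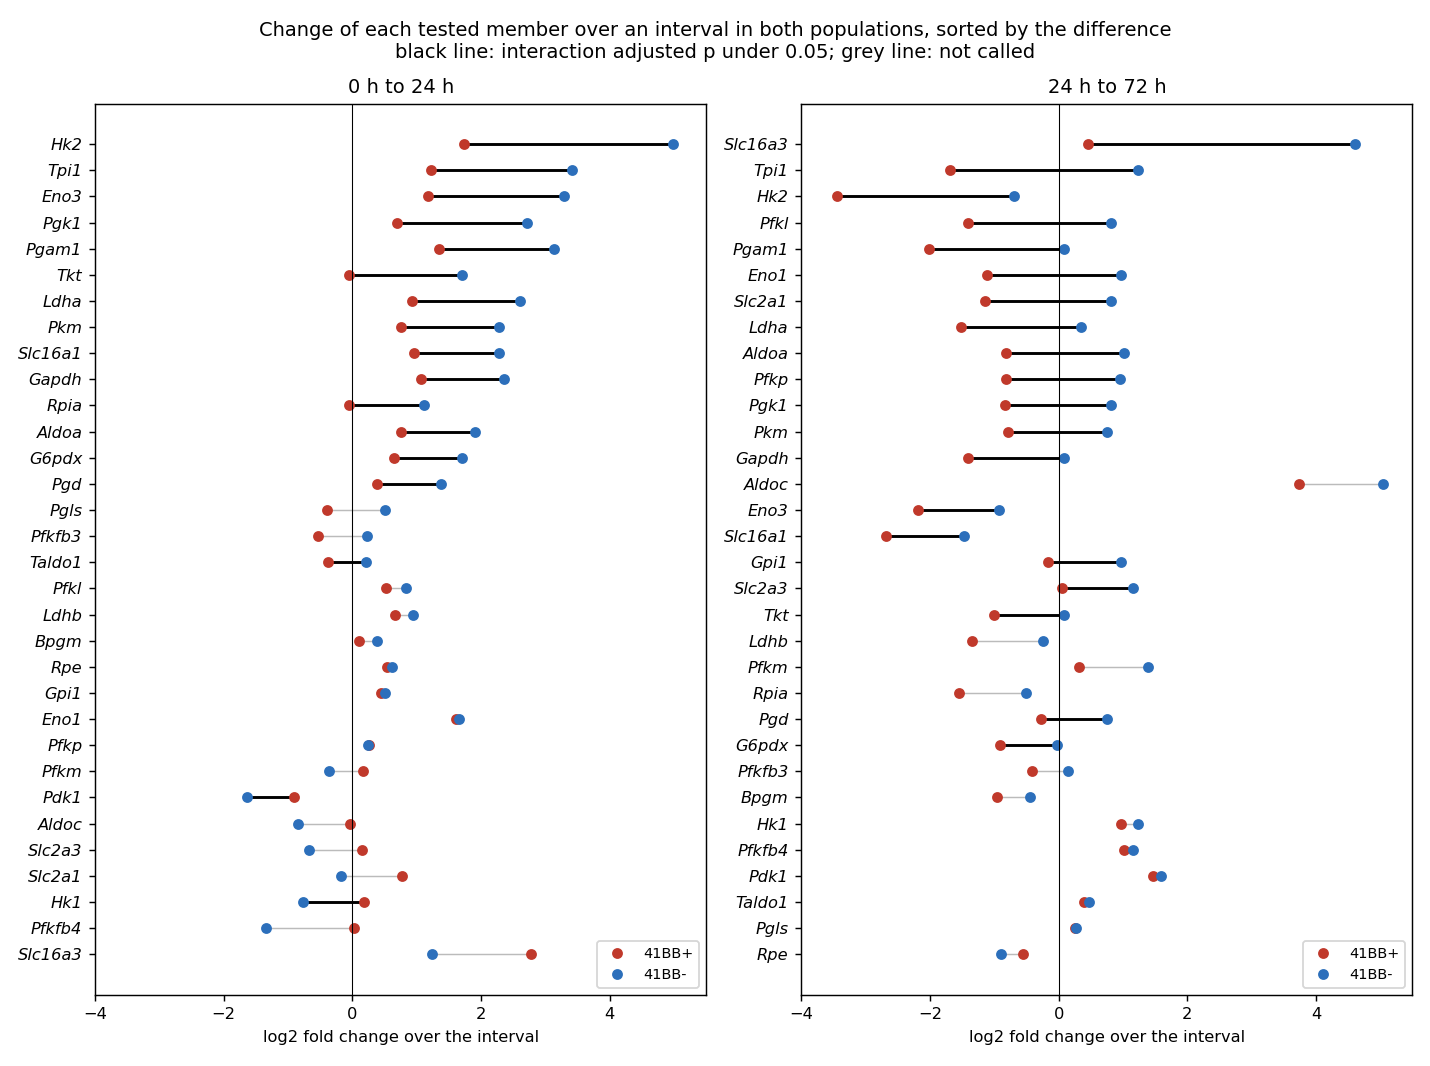
Log2 fold change of each tested member in 41BB+ and in 41BB- cells from 0 to 24 h and from 24 to 72 h, joined by a line that is black where the difference between the populations passed the test and grey where it did not. Of the 32 members, 17 have a black line in the first interval and 20 in the second.

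The difference between the populations' changes was tested as an interaction, the change in 41BB+ minus that in 41BB- cells. By construction the interaction is the population difference at the later time minus that at the earlier, so it is not separate from those comparisons. From 0 to 24 h it was below 0 for 15 members and above 0 for 2 (14.0% and 9.03% of all genes). The widest was that of Hk2 (log2 fold change -3.25, SE 0.41, adjusted p = 5.63e-06), followed by Tpi1 (log2 fold change -2.20, SE 0.28, adjusted p = 2.07e-06) and Eno3 (log2 fold change -2.12, SE 0.43, adjusted p = 0.000467). The 2 positive ones were Hk1 (log2 fold change 0.94, SE 0.19, adjusted p = 0.000408) and Pdk1 (log2 fold change 0.73, SE 0.19, adjusted p = 0.00514), the members whose fall in 41BB- cells is given above. From 24 to 72 h the interaction was below 0 for 20 members and above 0 for 0 by edgeR (11.4% and 6.1% of all genes). At an unadjusted p under 0.05 these counts were 22 and 0, and they were 21 and 0 by DESeq2 and 20 and 0 by voom. All 4 transporters, 5 of 8 genes of upper and 8 of 9 of lower glycolysis and 3 of 7 of the pentose phosphate pathway were among the 20. The 4 control points were not. Slc16a3 had the largest value (log2 fold change -4.15, SE 0.99, adjusted p = 0.00727), at -3.46 without the 41BB- library 3 and -4.86 without the 41BB+ library 3 of 72 h, followed by Tpi1 (log2 fold change -2.93, SE 0.25, adjusted p = 3.71e-08) and Hk2 (log2 fold change -2.74, SE 0.35, adjusted p = 1.56e-05). That of Slc2a1 (-1.96) was -1.36 without the 41BB- library 3 of 72 h. In the first interval Rpia and Taldo1 lost the call without single libraries (adjusted p from 0.0572 to 0.0682 and from 0.0543 to 0.0982), and in the second Slc2a3 and Eno3 did (0.0523 to 0.169 and 0.0587 to 0.111). With the experiment number as a block within each time, Slc2a1 (0.93, adjusted p = 0.0226), Slc2a3 (0.82, adjusted p = 0.0143), Pfkfb3 (-0.78, adjusted p = 0.00371) and Pgls (-0.88, adjusted p = 0.0357) were called too in the first interval. In the second Rpia was (-1.06, adjusted p = 0.0035). Each of these genes was also called under other settings.

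Isozymes of a step were compared per length, as each gene's share of the CPM per kilobase of merged exons within its reaction. Hk2 made up 48.4%, 56.5% and 53.6% of the hexokinase signal in the 41BB+ libraries at 0 h and 4.77%, 3.47% and 5.77% in the 41BB- libraries, the rest being nearly all Hk1. At 24 h the Hk2 share was 76.4% ± 0.902 (SD, n = 3) in 41BB+ and 73.2% ± 1.64 in 41BB- cells, and at 72 h 13.7% ± 5.43 and 40.3% ± 8.03. In both populations Hk2 was the larger at 24 h and Hk1 at 72 h. Which of them led in 41BB+ cells at 0 h depends on the length used, since the Hk2 share there was 52.8% ± 4.13 per merged exon length, 38.1% per longest transcript and 44.3% of the counts.

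**Figure D4:**
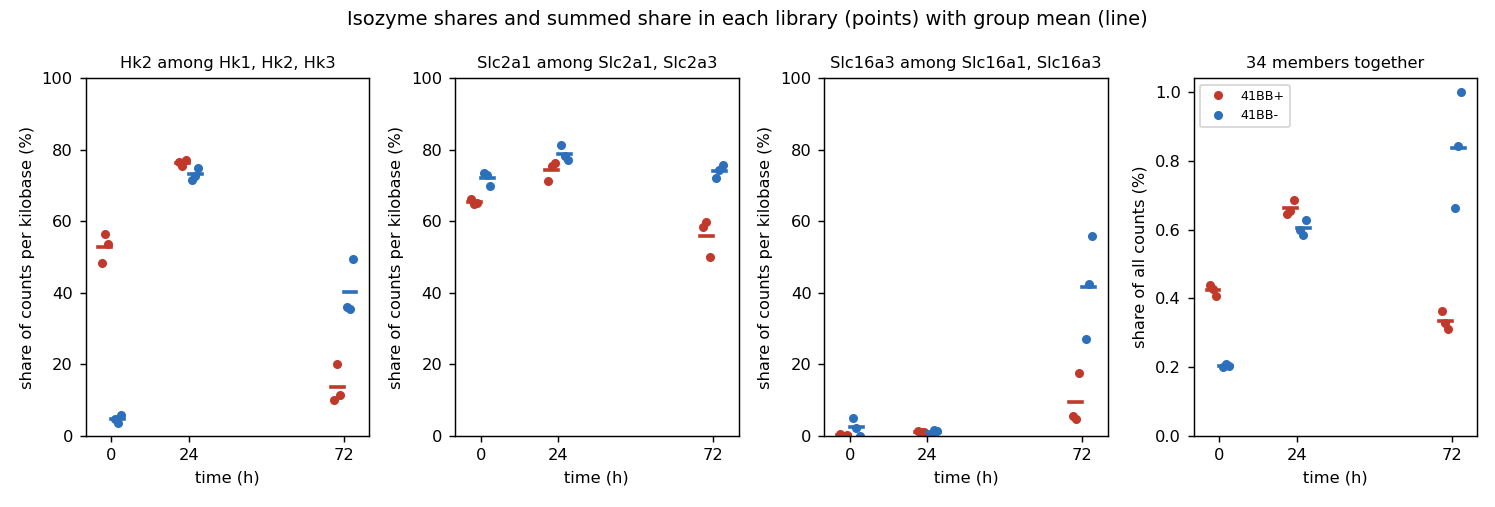
Share of Hk2 among hexokinases, of Slc2a1 among the glucose transporters Slc2a1 and Slc2a3, and of Slc16a3 among the lactate transporters Slc16a1 and Slc16a3 (percent of CPM per kilobase), and share of all counts on the 34 members (percent), against hours of activation. Points are libraries and short horizontal lines mark the group means: the Hk2 share peaks at 24 h in both populations, and the Slc16a3 share at 72 h is 41.7% in 41BB- and 9.33% in 41BB+ cells.

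Among the lactate transporters, Slc16a3 made up 27%, 42.4% and 55.8% in the 41BB- libraries at 72 h and 5.65%, 4.6% and 17.7% in the 41BB+ libraries. Before 72 h its share was at most 5.11% in any library, so that Slc16a1 was nearly the whole of the signal. Slc2a1 made up 56% ± 5.38 of the glucose transporter signal in 41BB+ and 74% ± 1.88 in 41BB- cells at 72 h, and 65.4% ± 0.687 and 72.1% ± 1.88 at 0 h. The phosphofructokinase share of Pfkl at 72 h was 29% ± 1.43 in 41BB+ and 42.2% ± 3.1 in 41BB- cells, and that of Pfkm 26.5% ± 7.17 and 12.8% ± 0.0167. Aldoa, Ldha and Pfkfb3 held at least 98.0%, 94.6% and 85.5% of their reactions' signal in every library. Eno3 held 22.9% ± 4.49 of the enolase signal in 41BB+ and 10.4% ± 1.78 in 41BB- cells at 0 h, and 18.2% ± 2.2 and 26.3% ± 1.46 at 24 h.

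Per kilobase and without the near copies described next, Ldha was the most abundant member in 5 of the 6 groups by either measure of length, merged exons or the longest transcript. By merged exons it stood at 201 ± 12.9 CPM per kilobase in 41BB+ and 53 ± 1.85 in 41BB- cells at 0 h, 368 ± 23.1 and 340.0 ± 41.8 at 24 h, and 390.0 ± 70.2 in 41BB- cells at 72 h. In 41BB+ cells at 72 h Ldha (123 ± 19.4), Pkm (116 ± 19.7) and Pgk1 (104 ± 14.3) did not differ beyond their SDs by merged exons. By the longest transcript Pgk1 (128 ± 17.6) lay below Pkm (238 ± 40.5) and Ldha (224 ± 35.4) there. Per merged exon length and again without copies, Pkm, Pgk1 and Aldoa were the next most abundant in 5 groups, and in 41BB- cells at 0 h the next were Aldoa (43 ± 3.75), Pkm (37.1 ± 2.09) and Gpi1 (33.4 ± 2.78). With the copies' counts added, Gapdh came above these at 0 h, at 175 CPM per kilobase of merged exons in 41BB+ and 48.3 in 41BB- cells. It stayed below Ldha there. At 72 h it came above Ldha by that length in 41BB+ cells (184 ± 16.5 against 123 ± 19.2), but not beyond the SDs by the longest transcript (231 ± 20.7 against 225 ± 35.0). In 41BB- cells the genes did not differ beyond their SDs by merged exons (419 ± 76.5 against 391 ± 70.3). By the longest transcript Gapdh lay below Ldha in those cells (526 against 712). Slc16a3 and Aldoc were the least abundant tested members in both populations at 0 h, each under 1 CPM per kilobase by either length.

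The reads of some members are uncertain because near copies of them exist. Other annotated genes of any type, with at least 95% identity over 200 bases, were found for 9 members. For 3 members these copies held over 10% of the counts of gene and copies together. Whether a copy is a pseudogene or an expressed gene was not sorted out. Gapdh had 78 such copies, which held 87.7% of these counts, and the copies of Eno1 held 35.5% and those of Pgam1 21.0%. With the copies' counts added, Gapdh had 724 ± 41.2 CPM in the 41BB+ and 199 ± 8.5 CPM in the 41BB- group at 0 h. The log2 fold changes were then 1.82 at 0 h and -1.11 at 72 h for Gapdh, 0.67 and -1.46 for Eno1, and 2.13 and -1.78 for Pgam1. From 24 to 72 h in 41BB+ cells that of Gapdh was -0.88 in place of -1.41, and in 41BB- cells Gapdh then rose by 0.59 (adjusted p = 4.49e-05). Pfkm overlaps Senp1 on the other strand (920 reads on Pfkm and 6616 on Senp1 over all libraries), as Pfkp does Pitrm1 (12111 and 8134), G6pdx Ikbkg (3021 and 2558) and Rpe Kansl1l (2040 and 1028). With no strand setting given in the sources used here, reads from such a pair cannot be told apart.

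Other genes around the pathway were counted from lists chosen by function. Over all tested genes, 22.2% were higher and 17.3% lower in 41BB+ cells at 0 h. At 72 h, 6.71% were higher and 12.2% lower. Of 11 tested genes of the pyruvate dehydrogenase complex, its kinases and the pyruvate carriers, 5 at 0 h were higher and 3 at 72 h lower in the 41BB+ group. Dld, the dihydrolipoamide dehydrogenase of the complex, was at 76.4 ± 8.39 against 43.1 ± 3.12 CPM at 0 h (log2 fold change 0.82, adjusted p = 1.51e-05), and at 72 h it was not called (log2 fold change -0.37, adjusted p = 0.054). Dlat, a core subunit of the complex, was at 52.1 ± 8.8 against 26 ± 3.33 CPM at 0 h (log2 fold change 0.99, adjusted p = 6.09e-05) and 28.9 ± 6.33 against 45 ± 6.59 CPM at 72 h (log2 fold change -0.61, adjusted p = 0.0159). Pdk3, a kinase that inhibits the complex, was likewise higher at 0 h (log2 fold change 1.01, adjusted p = 0.000139) and lower at 72 h (log2 fold change -0.64, adjusted p = 0.0184). Of 10 tested genes that use ribose phosphate or supply NADPH outside the pathway, 4 were higher and 1 lower at 0 h and 4 lower at 72 h. Mthfd1, which makes NADPH in the folate cycle, was at 283 ± 33.2 against 61.3 ± 6.68 CPM at 0 h (log2 fold change 2.19, adjusted p = 6.66e-13) and 37 ± 9.73 against 119 ± 4.09 CPM at 72 h (log2 fold change -1.66, adjusted p = 5.94e-09). Nadk, the kinase that makes NADP+, was higher at 0 h (log2 fold change 1.14, adjusted p = 6.03e-08) and lower at 72 h (log2 fold change -0.59, adjusted p = 0.00172). So was Prps2, a synthetase of phosphoribosyl pyrophosphate (log2 fold change 0.46, adjusted p = 0.0105 at 0 h and log2 fold change -0.58, adjusted p = 0.00688 at 72 h). Of 22 tested genes of side branches of glycolysis and of related enzymes, 3 were higher and 4 lower at 0 h, and 2 higher and 6 lower at 72 h. Gnpnat1, an enzyme of the hexosamine branch, was at 35.4 ± 3.39 against 14.6 ± 3.93 CPM at 0 h (log2 fold change 1.26, adjusted p = 2.95e-05), and Minpp1, an inositol polyphosphate phosphatase, was at 33 ± 1.24 against 17.5 ± 1.33 CPM (log2 fold change 0.90, adjusted p = 0.000345). Neither was called at 72 h (log2 fold change -0.17, adjusted p = 0.678, and log2 fold change -0.45, adjusted p = 0.0897). Pgm1, which links glucose phosphate to glycogen, was at 28 ± 1.86 against 83.5 ± 43.9 CPM at 72 h (log2 fold change -1.54, adjusted p = 5.67e-05). Of 6 tested genes for other isozymes of the same steps, 1 was lower at 0 h, H6pd of the endoplasmic reticulum (log2 fold change -0.74, adjusted p = 0.00431).

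Regulators of glycolytic genes and of glucose uptake showed both directions, 8 of the 20 being higher and 6 lower in the 41BB+ group at 0 h and 5 higher and 6 lower at 72 h. Of all tested genes, 22.2% were higher and 17.3% lower at 0 h, and 6.71% higher and 12.2% lower at 72 h. Myc, the transcription factor named above, was at 292 ± 22.9 against 100.0 ± 6.01 CPM at 0 h (log2 fold change 1.53, adjusted p = 5.05e-11), at 317 ± 11.7 against 370.0 ± 18.4 CPM at 24 h (log2 fold change -0.11, adjusted p = 0.804) and at 19.9 ± 4.23 against 57.6 ± 8.88 CPM at 72 h (log2 fold change -1.50, adjusted p = 3.29e-08). Irf4, a transcription factor induced by the T cell receptor, was at 129 ± 20.3 against 26.6 ± 9.7 CPM at 0 h (log2 fold change 2.26, adjusted p = 5.04e-10) and 34 ± 5.47 against 101 ± 19.9 CPM at 72 h (log2 fold change -1.54, adjusted p = 1.43e-06). Both genes were higher in 41BB+ cells before activation and lower at 72 h. Emb, which encodes the partner protein embigin of lactate transporters, went the other way, at 134 ± 8.95 against 343 ± 60.1 CPM at 0 h (log2 fold change -1.37, adjusted p = 1.19e-09) and 487 ± 77.2 against 309 ± 5.43 CPM at 72 h (log2 fold change 0.70, adjusted p = 0.000181). Txnip, an inhibitor of glucose uptake named here after its values were seen, was at 98.3 ± 18.1 against 403 ± 54.9 CPM at 0 h (log2 fold change -2.04, adjusted p = 7.26e-07) and 252 ± 85.5 against 109 ± 5.85 CPM at 72 h (log2 fold change 1.24, adjusted p = 0.000622).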

How the data were processed

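Total RNA of sorted and activated CD8+ T cells was extracted with the RNeasy Plus Micro Kit and made into libraries by Takara's SMARTer Stranded Total RNA-Seq Kit v2, as the labels' protocols state. FastQC 0.11.9, Trimmomatic 0.38, HISAT2 2.2.1, featureCounts and the build GRCm38 are named in the submitters' processing notes. How strand and multi-mapping reads were handled, and which annotation release was counted, was not given in the sources used here. Whole-number read counts per Ensembl gene were deposited, not normalized by the authors, with 1 column per library. Symbols, coordinates and exon lengths came from GENCODE M21 on GRCm38, and 260 of the 55487 identifiers had no symbol.

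Libraries were grouped by the labelled population and time. filterByExpr, at a minimum count of 10 and a minimum total of 15, kept 13150 of 55487 genes. Counts of all 18 libraries were fitted together with edgeR 4.0.16 in R 4.3.3, with TMM factors, robust quasi-likelihood dispersions (common biological coefficient of variation 0.18) and 1 mean per group. The 9 contrasts were 41BB+ minus 41BB- at each time, the later minus the earlier time within a population, and the population by interval interactions. Values of p were adjusted over all genes tested by the Benjamini-Hochberg method. CPM uses the plain library total and fold changes use TMM, so a small difference can differ in sign between them. P-values measure the spread between these libraries, whose origin in separate animals is not given beyond the word biological. Statements that groups did not overlap describe single genes. The share of all tested genes whose groups stay apart is not given here, and for called genes the separation adds nothing separate to the call.

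The 34 members, the other lists and the tests were chosen with earlier results of these data known. Within each role, the members past the threshold with the largest absolute log2 fold change in a comparison of populations or an interaction, up to 4, are given with every library's value, and the other members by their means, ranges or counts. Hk1, Gpi1, Eno1 and Ldha were given every library's value after their values were seen. Of each list around the pathway, up to 3 genes with the smallest adjusted p in a comparison of populations were named. Alternatives were DESeq2 1.42.0, limma 3.58.1 voom with quality weights, RLE factors, no filter, only the compared groups, the experiment number as a block, removal of mitochondrial genes, ribosomal RNA and Gm23935, and each library left out. The addition of near copies, found with BLAST+ 2.17.0, was chosen after seeing the data. The chi-square between replicates of a group was 4.56 to 8.9 per degree of freedom, above sampling noise, so each library counted as 1 sample.

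The labels give each library an experiment number, 1 to 3, which was taken to mark a shared experiment of the populations within a time. Over 12686 genes, deviations from the group means correlated at a median of 0.107 over 9 pairs that share time and number (lowest -0.043). The median was -0.0632 over 18 pairs that share only the time and 0.0206 over 36 pairs that share only the number. Deviations from a group mean cancel within the group, so the value of the 18 pairs largely follows from that of the 9 pairs. The fit was tested on simulated data. Of genes changed 2-fold, 59.7% were called at 0 h (12757 genes) and 64.2% at 72 h (12799 genes). Of the genes called in the simulations, 7.14% at 0 h, 4.46% at 24 h and 6.35% at 72 h had not been changed. Sequences came from RefSeq tables on GRCm38.p6. Proteins were not used here. The sum of 1 marker list is not reported here.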

Additional observations from a re-analysis of the deposited data

Results flagged for a closer look

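Members are listed here because the change over an interval differed between the populations by the test of the interaction itself (edgeR's quasi-likelihood test, Benjamini-Hochberg adjusted). Values in parentheses are log2 interactions, the change in 41BB+ minus the change in 41BB- cells, and each rests on 3 libraries per group.

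From 0 to 24 h the value was above 0 for Hk1 (0.94) and Pdk1 (0.73). It was below 0 for Hk2 (-3.25), Tpi1 (-2.2), Eno3 (-2.12), Pgk1 (-2.03), Pgam1 (-1.8), Tkt (-1.77), Ldha (-1.68), Pkm (-1.52), Slc16a1 (-1.32), Gapdh (-1.29), Rpia (-1.17), Aldoa (-1.15), G6pdx (-1.06), Pgd (-1.0) and Taldo1 (-0.6). In 41BB- cells, 14 of these 15 members rose over the interval and Taldo1 was not called, while 29.0% of all tested genes rose there. The change in 41BB- cells is a part of the interaction, so this count is not separate from the choice of these members.

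From 24 to 72 h the value was below 0 for Slc16a3 (-4.15), Tpi1 (-2.93), Hk2 (-2.74), Pfkl (-2.23), Pgam1 (-2.11), Eno1 (-2.09), Slc2a1 (-1.96), Ldha (-1.86), Aldoa (-1.83), Pfkp (-1.78), Pgk1 (-1.65), Pkm (-1.55), Gapdh (-1.5), Eno3 (-1.27), Slc16a1 (-1.22), Gpi1 (-1.13), Tkt (-1.1), Slc2a3 (-1.1), Pgd (-1.02) and G6pdx (-0.88). The 41BB- library 3 of 72 h had the highest level of its group in 24 of the 32 tested members, a count not given here for all tested genes. The values of Slc16a3 and Slc2a1 without that library stand with the results above.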

How the results depend on the processing

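Of 165 calls of members over the 9 comparisons, 22 were lost without 1 library and 10 under at least 1 other alternative, over 2612 repeats in all, and 0 changed direction. DESeq2 kept all 165, the experiment number as a block all 165, and the block within each time all 80 it could be run on. RLE factors and near copies each lost 1 call, voom and the removal of mitochondrial genes, ribosomal RNA and Gm23935 each 3, and no filter and only the compared groups each 5. Those outside the paragraphs above were the rise of Slc2a1 in 41BB- cells from 24 to 72 h under only the compared groups (adjusted p = 0.193) and voom (0.0621), and that of Ldha under 3 of these alternatives (0.0647 to 0.176). The others were the calls of Taldo1 over time with no filter (0.0543 to 0.193), that of Pfkfb3 from 0 to 24 h in 41BB+ cells without mitochondrial genes, ribosomal RNA and Gm23935 (0.0507), the interaction of Slc2a3 from 24 to 72 h under only the compared groups (0.078) and voom (0.0675), and Rpia at 72 h under only the compared groups (0.0851). The cause was not tested.

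Without each library in turn, the members called numbered 19 to 21 between the populations at 0 h, 1 at 24 h in each case, and 19 to 21 at 72 h. They numbered 15 to 18 and 22 to 25 in 41BB+ cells over the 2 intervals, 20 to 22 and 19 to 21 in 41BB- cells, and 15 to 18 and 18 to 20 for the interactions. At 24 h only the compared groups in the fit gave 2 called members, Tpi1 being the added one (log2 fold change 0.41, adjusted p = 0.0237). With the block the members called were 22 at 0 h, 1 at 24 h and 21 at 72 h, and 21 for the interaction from 0 to 24 h with the block within each time. It changed no other call than those printed beside the results. Over all genes, 361 were called at 24 h, 577 with the block within each time, 261 without the 41BB+ library 1 of that time and 181 to 236 without each of the other 5.

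Shares of isozymes with no division by length differ by construction. That of Hk2 was 44.3% and 3.36% at 0 h and 69.9% and 65.7% at 24 h (41BB+ and 41BB-). That of Slc2a1 was 47.8% and 55.6% at 0 h, 58.5% and 64.4% at 24 h, and 38.3% and 58.0% at 72 h. That of Pfkl was 27.6% and 23.6%, 31.7% and 32.5%, and 22.2% and 30.4%, and that of Slc16a3 in 41BB+ cells at 24 h was 1.34%. Depth limits Slc16a3, Aldoc, Hk3 and Eno2 before 72 h, where a group held few reads.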
